A study of Homo sapiens with 10 samples.

Results

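The comparison described here is that of stimulated with unstimulated H1650 cells, a human non-small cell lung carcinoma line that the labels describe as EGFR mutant. Members were chosen by title: 3 of the 10 arrays of the series carry H1650 RNA and control siRNA, namely 1 array with nicotine, 1 with EGF and 1 without a stimulus. Nicotine was given at 1 µM and EGF at 100 ng/ml, each after 48 h without serum, and the unstimulated cells were starved in the same way. The labels give 18 h of stimulation for both lines and, in another place, a range that runs longer, so the time is known only as far as that. All 3 carry control siRNA, since the study asked which genes lie downstream of ID1, and the remaining 7 arrays hold ID1 siRNA samples of H1650 and the 5 matching conditions of A549. There was n = 1 array per condition, so no difference below has a replicate check, no p-value is given, and both differences rest on the same unstimulated array.

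EGF binds the EGF receptor, a tyrosine kinase whose signal runs through RAS and ERK to early transcription factors such as EGR1 and the AP-1 proteins, and later to secreted proteases, receptor ligands and phosphatases that damp the pathway. Nicotine opens nicotinic acetylcholine receptors, ligand-gated ion channels that are also found on lung epithelial and carcinoma cells. Interferon-induced genes, which recur below, encode antiviral enzymes and chemokines and are switched on through STAT and IRF factors bound at interferon-stimulated response elements.

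Values are linear MAS5 signals, an arbitrary brightness unit scaled by the authors to the same trimmed mean of about 500 on each array, and differences are given as log2 signal with the stimulus minus log2 signal without it. For each gene the probe set with the highest mean signal over the 3 arrays was used, and 12539 genes whose mean reached the median of all probe sets (signal 71.9) were compared. A gene is counted where the difference was at least 2-fold, the size the labels name. Where the dimmer value lay below the median of its array, between 73.5 and 79.3, the fold is given as a lower bound against that median. In such bulk RNA, fewer cells that express a gene and less RNA per cell cannot be told apart.

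All 8 epithelial markers were bright on all 3 arrays, as the label of the line says, with signals from 3494 for RAB25 on the nicotine array to 23525 for KRT18 on the unstimulated array. Among the blood markers PTPRC, the common leukocyte antigen, had 12.8 with nicotine, 25.2 with EGF and 37.1 without a stimulus. Of the markers of blood, endothelial and fibroblast cells, 3 of 5, 2 of 3 and 2 of 5 lay below the array median on all 3 arrays, and their summed signals ranged from 282 to 411, from 176 to 336 and from 730 to 785. ID1, the gene targeted elsewhere in the series, had 4964 with nicotine, 5121 with EGF and 5030 without a stimulus, so the 3 control arrays were alike in it. Over 7 hybridisation spike probe sets the stimulated arrays lay between 0.976-fold and 1.22-fold of the unstimulated one. The 3' to 5' signal ratio, a measure of RNA integrity, was 0.932, 0.914 and 0.908 for GAPDH and 1.32, 1.23 and 1.33 for ACTB on the nicotine, EGF and unstimulated arrays.

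EGF was accompanied by more and larger differences than nicotine, and mostly by lower signals. With EGF 115 genes were at least 2-fold higher (0.917% of those compared) and 218 at least 2-fold lower (1.74%), whereas with nicotine 71 were higher (0.566%) and 26 lower (0.207%). At 1.5-fold nicotine had 369 genes higher (2.94%) and 165 lower (1.32%). By any amount 48.6% of genes were higher with nicotine. The middle 95% of genes lay between -0.87 and 0.70 on the log2 scale for EGF and between -0.47 and 0.62 for nicotine, with medians of -0.03 and -0.01. The nicotine genes were dim: the median of their mean signals was 89.5 for those higher and 94.2 for those lower, and 56 of 71 and 22 of 26 had at least 1 array below its own median. The median over all probe sets was 0.11 (log2) higher on the nicotine array than on the unstimulated one, and with arrays centred on their medians the nicotine counts were 48 higher and 43 lower. The predominance of higher genes with nicotine thus depended on the scaling, while that of lower genes with EGF did not, at 114 higher and 222 lower after centring.

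**Figure D1:**
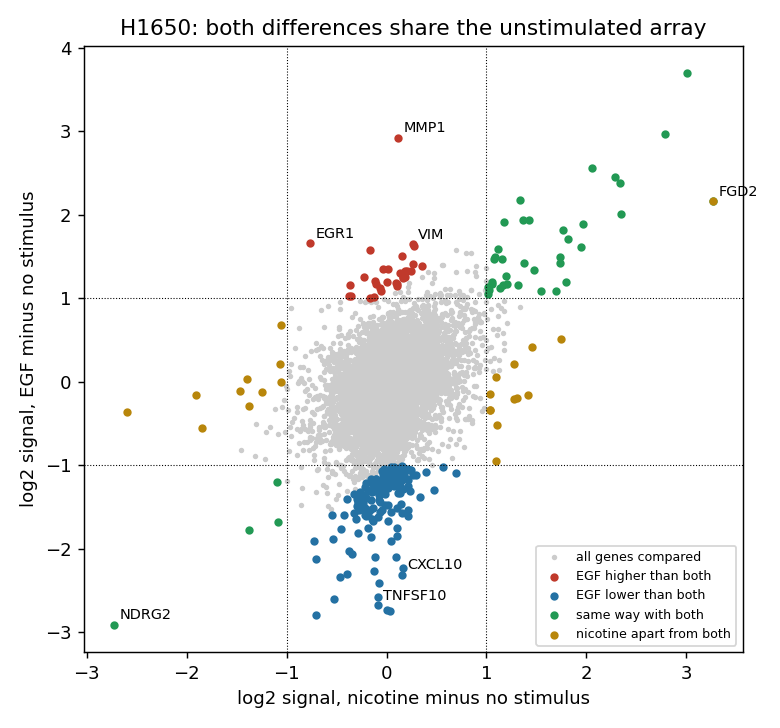
Each point is a gene of the H1650 control siRNA arrays, with the log2 signal difference of nicotine minus no stimulus on the horizontal axis and of EGF minus no stimulus on the vertical axis, and dotted lines mark 2-fold. The red and blue genes, 32 higher and 151 lower with EGF than on both other arrays, lie along the vertical axis, and the green ones, 36 higher and 4 lower with both stimuli, share the unstimulated array; FGD2 belongs to the green and the gold group.

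Among genes that stood apart with EGF, at least 2-fold from the unstimulated and from the nicotine array alike, 32 were higher (0.255% of genes) and 151 lower (1.2%). Of the 151, 61 had an EGF signal below the array median, and with dim values raised to it 31 genes were higher and 110 lower. The higher ones were led by MMP1, interstitial collagenase, with a signal of 4553 with EGF, 650 with nicotine and 601 without a stimulus, a 7.58-fold difference between EGF and no stimulus. The only array high in MMP1 was that of EGF, and those of nicotine and no stimulus were close together. MMP10, stromelysin 2, had 717 with EGF, 273 with nicotine and 281 without a stimulus. MMP3, stromelysin 1, had 326 with EGF, 169 with nicotine and 154 without a stimulus, which is 2.11-fold higher with EGF than without but 1.92-fold higher than with nicotine, so it is not among the 32. MMP1, MMP10 and MMP3 were the 3 of 15 invasion and matrix protease genes compared that reached 2-fold higher with EGF, against 0.917% of all genes, and 0 were 2-fold lower, against 1.74%. The list as a whole had a median of -0.03 with EGF and 0.05 with nicotine.

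EGR1, a zinc finger factor of the early ERK response, had 1492 with EGF, 278 with nicotine and 473 without a stimulus, or 3.15-fold more with EGF than without. Its 2 other bright probe sets also gave more with EGF, by a log2 of 1.84 and 1.63. They did not repeat the lower signal with nicotine, for which the 3 probe sets stood at -0.76, 0.85 and 0.17, so the EGR1 difference with nicotine has no settled sign. EGR4, of the same factor family, had 240.0 with EGF, 93.7 with nicotine and 77.6 without a stimulus on the brighter probe set, but a second bright one gave -0.14 for EGF minus no stimulus. EGR1 was the 1 of 12 immediate early genes compared that reached 2-fold, where 0.917% of all genes were 2-fold higher with EGF. The list median was 0.19 with EGF and -0.00 with nicotine. The EGR1 promoter is shown because the gene is a classical ERK target and its own promoter carries CArG boxes, the sites bound by serum response factor. It is the RefSeq sequence of GRCh38.p14, plus strand, chr5:138465229-138465528, from 250 bases before to 50 after the start, with matches to the CArG box on both strands in capitals.
EGR1: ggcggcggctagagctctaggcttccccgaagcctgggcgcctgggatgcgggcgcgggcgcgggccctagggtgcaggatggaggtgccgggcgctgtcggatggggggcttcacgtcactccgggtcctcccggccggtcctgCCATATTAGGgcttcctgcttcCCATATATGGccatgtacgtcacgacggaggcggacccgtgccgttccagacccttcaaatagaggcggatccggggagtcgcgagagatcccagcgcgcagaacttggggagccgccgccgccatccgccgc
The 2 capital runs lie at -105 to -96 and at -83 to -74 from the start site. Of 10222 compared genes with a promoter in the table, 1.07% hold such a match, as do 1 of 24 promoters of the genes higher with EGF (4.17%).

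Genes of cell structure and matrix among those higher with EGF included VIM, the intermediate filament vimentin. VIM had 7251 with EGF, 2765 with nicotine and 2307 without a stimulus, a 3.14-fold difference, and was the 1 of 14 mesenchymal markers to reach 2-fold, with a list median of 0.10. The 17 epithelial markers compared included 0 at 2-fold in either direction, with a median of -0.06. With EGF 0.917% of all genes were 2-fold higher and 1.74% lower, so lists of this size would be expected to hold few or none. BNC1, a zinc finger factor of basal epithelium, had 751 with EGF, 310.2 with nicotine and 334 without a stimulus, but its other bright probe set gave 0.25 for EGF minus no stimulus. CCN2, a matrix-associated growth factor and a target of TGF-beta and of YAP, had 3178 with EGF, 1439 with nicotine and 1497 without a stimulus. It was the 1 of 12 TGF-beta and BMP targets compared that reached 2-fold.

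Receptors and secreted factors were also among the genes higher with EGF. IL13RA2, a decoy receptor for interleukin 13, had 628 with EGF, 187 with nicotine and 209 without a stimulus (a log2 difference of 1.58). STEAP1, a membrane haem protein raised in several carcinomas, had 1486 with EGF, 586 with nicotine and 525 without a stimulus. SUN3, a nuclear envelope protein best known from testis, had 646 with EGF, 257 with nicotine and 254 without a stimulus. In each of these genes the nicotine and unstimulated signals lay within 1.12-fold of each other, and the EGF signal at least 2.51-fold above either. NRG1, a ligand of the ERBB3 and ERBB4 receptors, had 621 with EGF, 285 with nicotine and 246 without a stimulus. SERPINA1, the antiprotease alpha-1-antitrypsin, had 472 with EGF, 225 with nicotine and 198 without a stimulus, with a second probe set at 1.29. GLIPR1, which is induced by p53 in some tissues, had 4061 with EGF, 1880 with nicotine and 1678 without a stimulus, and its 4 other bright probe sets gave 1.21 to 1.55. BNC1, NRG1, SERPINA1 and GLIPR1 were picked for description after their values were seen, as were EGFR, ERBB3, TGFA, SPRY4, DUSP5, DUSP6, ETV5, CCND1, MX1, ISG15, IFI6, S100A9, CHRNA5 and those marked below.

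**Figure D2:**
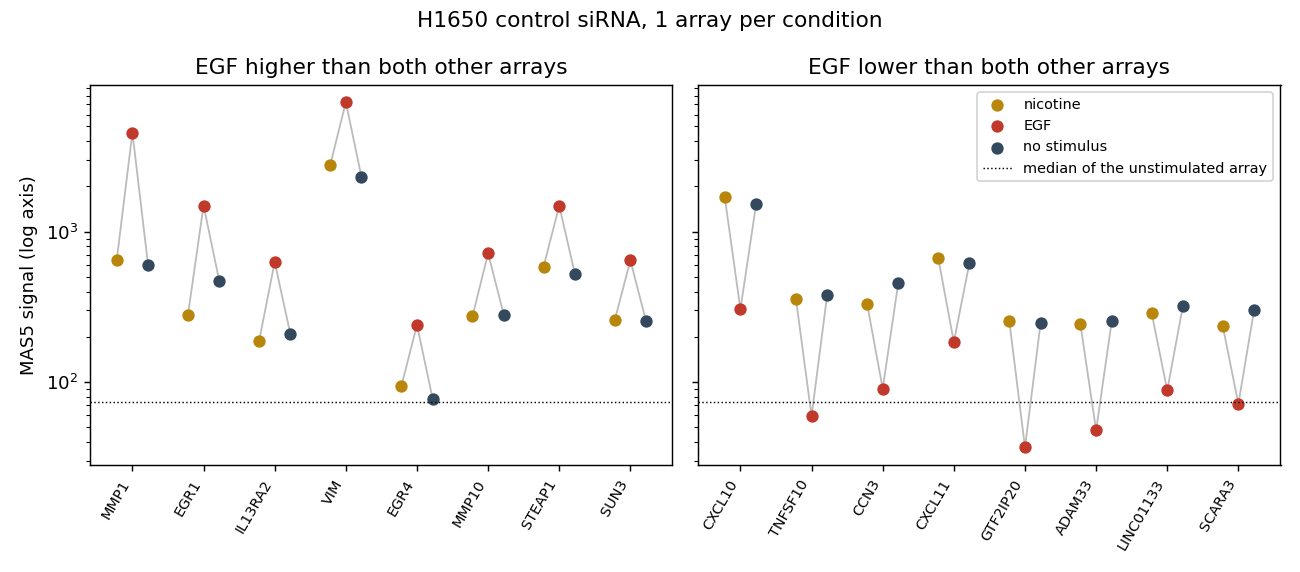
MAS5 signal on a log axis for the 8 genes ranked first among those higher (left) and the 8 among those lower (right) with EGF than on both other H1650 control siRNA arrays, 1 point per array, with nicotine, EGF and no stimulus from left to right within a gene. For MMP1 the EGF point is at 4553 against 650 and 601, for CXCL10 at 305 against 1690 and 1516, and the dotted line marks the median of the unstimulated array, 73.5.

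The wider ERK programme was shifted by less than 2-fold. Of 19 EGF and ERK response genes compared, 17 were higher with EGF than without, where 45.9% of all genes were, and the list median was 0.28 with EGF and 0.04 with nicotine. At 1.5-fold 3 of the 19 were higher and 0 lower with EGF, where 3.9% and 6.67% of all genes were. FOSL1, the AP-1 subunit FRA1, had 1857 with EGF, 1049.5 with nicotine and 949 without a stimulus. DUSP6, the phosphatase that inactivates ERK, had 1849 with EGF, 1250.3 with nicotine and 1137 without a stimulus, and its 2 other bright probe sets gave a log2 of 0.78 and 0.96. LIF, a cytokine of the interleukin 6 family, had 1339.5 with EGF, 935 with nicotine and 788 without a stimulus. Other members were closer to their unstimulated level: the ERK inhibitor SPRY4 was at 0.23, the phosphatase DUSP5 at 0.35, the ETS factor ETV5 at 0.04 and the cyclin CCND1 at 0.25 (log2, EGF minus no stimulus).

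Of 14 listed genes of the EGF receptor family and its ligands, 10 were compared and 0 reached 2-fold in either direction. Of all genes 0.917% were 2-fold higher and 1.74% lower with EGF. The ligand NRG1, more than 2-fold higher with EGF as given above, was not on this list. EGFR itself had 12190 with EGF, 12347 with nicotine and 11464 without a stimulus. The ligand HBEGF had 1532 with EGF, 889 with nicotine and 783 without a stimulus, a log2 difference of 0.97, and a second probe set gave 0.98. BTC, betacellulin, had 175 with EGF, 368 with nicotine and 342 without a stimulus, a log2 difference of -0.97, while its second bright probe set gave -0.16. TGFA, a further ligand of the receptor, stood at 0.42 and ERBB3, a receptor that pairs with EGFR, at -0.15. HBEGF thus stood near 2-fold on both probe sets, and BTC on 1 of 2. The gene for EGF itself, named after its value was seen, was also near 2-fold, at 0.96. It had 386 with EGF, 144 with nicotine and 199 without a stimulus.

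Interferon-induced genes were lower with EGF and close to the unstimulated level with nicotine. Of 25 interferon response genes 22 were compared, 21 of them were lower with EGF than without, against 54.1% of all genes, and 7 were at least 2-fold lower, against 1.74% of all genes. The list median was -0.78 with EGF and 0.02 with nicotine. With nicotine 0 of the 22 differed by 1.5-fold, where 2.94% of all genes were higher and 1.32% lower. A list of this size would be expected to hold few or none, so that 0 does not set the list apart. The 7 were IFI44L, IFITM1, OAS1, OAS2, OASL, RSAD2 and MX2. IFI44L, an interferon-induced protein, had 3365 with EGF, 9189 with nicotine and 8200.3 without a stimulus (2.44-fold). OAS2, a 2'-5'-oligoadenylate synthetase, had 1974 with EGF, 5356 with nicotine and 4953 without a stimulus. Other OAS2 probe sets differed less, at -0.92 and -0.35. RSAD2, the antiviral enzyme viperin, had 4932 with EGF, 11276 with nicotine and 10751 without a stimulus, with a second probe set at -1.05. IFITM1, which restricts viral entry, had 3112 with EGF, 8627 with nicotine and 8691 without a stimulus.

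Several of the brightest interferon genes differed by less than 2-fold. MX1, an antiviral GTPase, had 10308 with EGF, 16098 with nicotine and 16217 without a stimulus. ISG15, a ubiquitin-like modifier, had 12481 with EGF, 16993 with nicotine and 17808 without a stimulus. IFI6, which opposes apoptosis, had 19476 with EGF, 18005 with nicotine and 17816 without a stimulus, and was the 1 list member not lower with EGF.

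CXCL10, TNFSF10 and CXCL11, which interferons can induce, ranked 1, 2 and 4 among the genes lower with EGF than on both other arrays. CXCL10, a T cell attractant, had 305 with EGF, 1690 with nicotine and 1516 without a stimulus, which is 4.97-fold lower with EGF than without. CXCL11, a ligand of the same receptor, had 185 with EGF, 671 with nicotine and 623 without a stimulus, and its second bright probe set gave -1.70. TNFSF10, the death ligand TRAIL, had 59.5 with EGF, below the array median, 359 with nicotine and 381 without a stimulus. It was at least 5.16-fold lower with EGF, and both other bright probe sets, also below the median with EGF, were at least 4.50-fold and 6.02-fold lower. Other genes picked after their values were seen, were the interferon lambda gene IFNL2 (124 with EGF, 380.3 with nicotine, 368 without a stimulus), RTP4 (323, 911 and 953 in the same order), TRIM22 (987, 3013 and 2810.0) and the ISG15 protease USP18 (1374, 3437 and 3259). IFNB1, interferon beta and also picked in this way, was dim, with 48.0 with EGF, 109 with nicotine and 116 without a stimulus.

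The promoters of the 2 chemokines and of IFI44L are shown because all of these genes were lower with EGF. They are RefSeq sequences of GRCh38.p14, from 250 bases before to 50 after the start, CXCL10 on the minus strand at chr4:76023448-76023747, CXCL11 on the minus strand at chr4:76036021-76036320 and IFI44L on the plus strand at chr1:78620198-78620497. Capitals mark matches on either strand to GAAA, any 2 bases and GAAA, the core of the interferon-stimulated response element.
CXCL10: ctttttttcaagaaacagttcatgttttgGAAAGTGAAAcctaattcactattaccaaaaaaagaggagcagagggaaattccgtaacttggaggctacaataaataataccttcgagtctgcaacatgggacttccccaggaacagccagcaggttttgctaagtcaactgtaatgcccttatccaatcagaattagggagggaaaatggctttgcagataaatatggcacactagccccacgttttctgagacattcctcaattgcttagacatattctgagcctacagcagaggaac
CXCL11: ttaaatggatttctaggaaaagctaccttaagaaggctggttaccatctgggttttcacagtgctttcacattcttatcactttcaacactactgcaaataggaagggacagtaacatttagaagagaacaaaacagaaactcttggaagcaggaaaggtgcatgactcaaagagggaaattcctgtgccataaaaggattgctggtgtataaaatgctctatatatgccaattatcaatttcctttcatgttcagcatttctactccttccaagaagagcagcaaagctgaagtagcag
IFI44L: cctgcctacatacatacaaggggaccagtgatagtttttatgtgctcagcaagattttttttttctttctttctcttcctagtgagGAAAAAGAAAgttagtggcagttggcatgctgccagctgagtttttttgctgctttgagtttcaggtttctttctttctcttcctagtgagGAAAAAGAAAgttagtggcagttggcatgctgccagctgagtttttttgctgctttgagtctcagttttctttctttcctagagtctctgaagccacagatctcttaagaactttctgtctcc
CXCL10 has 1 match, at -221 to -212, IFI44L has 2, at -164 to -155 and at -73 to -64, and CXCL11 has 0 in this window. The letters occur in 277 of 10222 promoters of compared genes (2.71%), in 13 of 18 of the interferon response list (72.2%), in 10 of 103 of the genes lower with EGF than on both other arrays (9.71%) and in 2 of 24 of those higher (8.33%). The AP-1 letters TGANTCA, on either strand, occur in 4.69% of all these promoters, in 7.77% of the lower and in 8.33% of the higher group. A match describes the letters of the window and says nothing of a factor bound there.

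Genes of squamous and barrier epithelium and of the lung lineage were split with EGF. S100A8, a subunit of calprotectin, had 2738 with EGF, 7122 with nicotine and 7435 without a stimulus. It was the 1 of 11 squamous and barrier genes compared that reached 2-fold, where 1.74% of all genes were 2-fold lower. Its second bright probe set gave -0.43 against -1.44 here. Its partner S100A9 had 8312 with EGF, 8952 with nicotine and 9360 without a stimulus. Of the 11 genes 6 were lower and 5 higher with EGF by any amount, among the higher the keratin KRT15 at 0.44, the cornified envelope precursors SPRR1B at 0.54 and IVL at 0.10 (log2), named after their values were seen. Picked from the lower genes after their values were seen, and so no sample of barrier genes, LY6D, a surface protein of stratified epithelium, had 1401 with EGF, 3660 with nicotine and 4008 without a stimulus, the plakophilin PKP1 had 341, 503 and 753 in the same order, TRIM29 1139.7, 2629 and 2622, and CLCA2, a chloride channel regulator of basal cells, 291, 739.7 and 778. Other bright probe sets gave smaller differences for PKP1, at -0.56, and TRIM29, at -0.30, and -0.64 to -1.25 for CLCA2. MGP, matrix Gla protein and likewise picked, had 2666 with EGF, 6891 with nicotine and 7704 without a stimulus. The cell surface mucin MUC15, picked in the same way, had 328 with EGF, 925 with nicotine and 1020.3 without a stimulus, with a second probe set at -1.24. The squamous list median was -0.14 with EGF.

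Of 7 lung epithelial lineage genes compared, 3 were at least 2-fold lower with EGF and 0 higher, against 1.74% and 0.917% of all genes. By any amount 3 of the 7 were higher with EGF, with surfactant protein gene SFTPB, named after its value was seen, at 0.52 (log2). CEBPA, a transcription factor of alveolar differentiation, had 545 with EGF, 914 with nicotine and 1274 without a stimulus. LAMP3, a lamellar body protein that interferon also induces, had 1988 with EGF, 4179 with nicotine and 4051 without a stimulus. SFTPC, surfactant protein C, was dim, at 88.6 with EGF, 306 with nicotine and 189 without a stimulus. The nicotine array held the highest SFTPC signal and the lowest was that with EGF, and no other probe set of it was bright enough for comparison.

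Other genes among the 8 ranked first on the lower side had varied roles. CCN3, a matrix-associated regulator of growth, had 90.4 with EGF, 333 with nicotine and 459 without a stimulus, and a second probe set was at least 2.04-fold lower with EGF. SCARA3, a scavenger receptor that protects from oxidative damage, had 71.6 with EGF, 236 with nicotine and 300.1 without a stimulus, and its 2 other bright probe sets were at least 1.48-fold and 1.86-fold lower. ADAM33, a metalloprotease, had 47.8 with EGF, 242 with nicotine and 255 without a stimulus, at least 3.45-fold lower. The pseudogene GTF2IP20 and the long non-coding RNA LINC01133 completed the 8, at 36.9 and 88.2 with EGF, 254 and 289 with nicotine, and 247 and 321 without a stimulus. Over the whole group, 45 other bright probe sets of 34 genes were available, and 41 were lower in both differences, 20 of them at least 2-fold in both as measured. Probe sets of a gene share the RNA of the array and are no replicates of the condition.

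The remaining lists held few genes at 2-fold, as would be expected at their sizes. Of all genes 0.917% were 2-fold higher and 1.74% lower with EGF, and 0.566% and 0.207% with nicotine. Of 14 NRF2 targets 1 was 2-fold lower with EGF, the aldo-keto reductase AKR1C1 at 68.2 with EGF, 128.0 with nicotine and 169 without a stimulus. For G2/M and mitosis genes 20 of 21 were lower with EGF by any amount, where 54.1% of all genes were, with a median of -0.24 and 0 at 1.5-fold. For G1/S and DNA replication 14 of 22 were lower with EGF and 18 of 22 with nicotine, against 54.1% and 51.4% of all genes, with medians of -0.07 and -0.08. The NF-kB and inflammatory list had a median of -0.21 with EGF and 0.14 with nicotine and 0 of 16 genes at 2-fold, with the chemokine CCL20 at 2492 with EGF, 4282 with nicotine and 3971 without a stimulus. Hypoxia and glycolysis, cholesterol and fatty acid synthesis, p53, FOXO, unfolded protein and stress, ID and bHLH, CDK inhibitor, adrenergic and arrestin, mucin, ribosomal, oxidative phosphorylation and other cell type lists had 0 genes at 2-fold with either stimulus, and medians between -0.29 and 0.14.

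**Figure D3:**
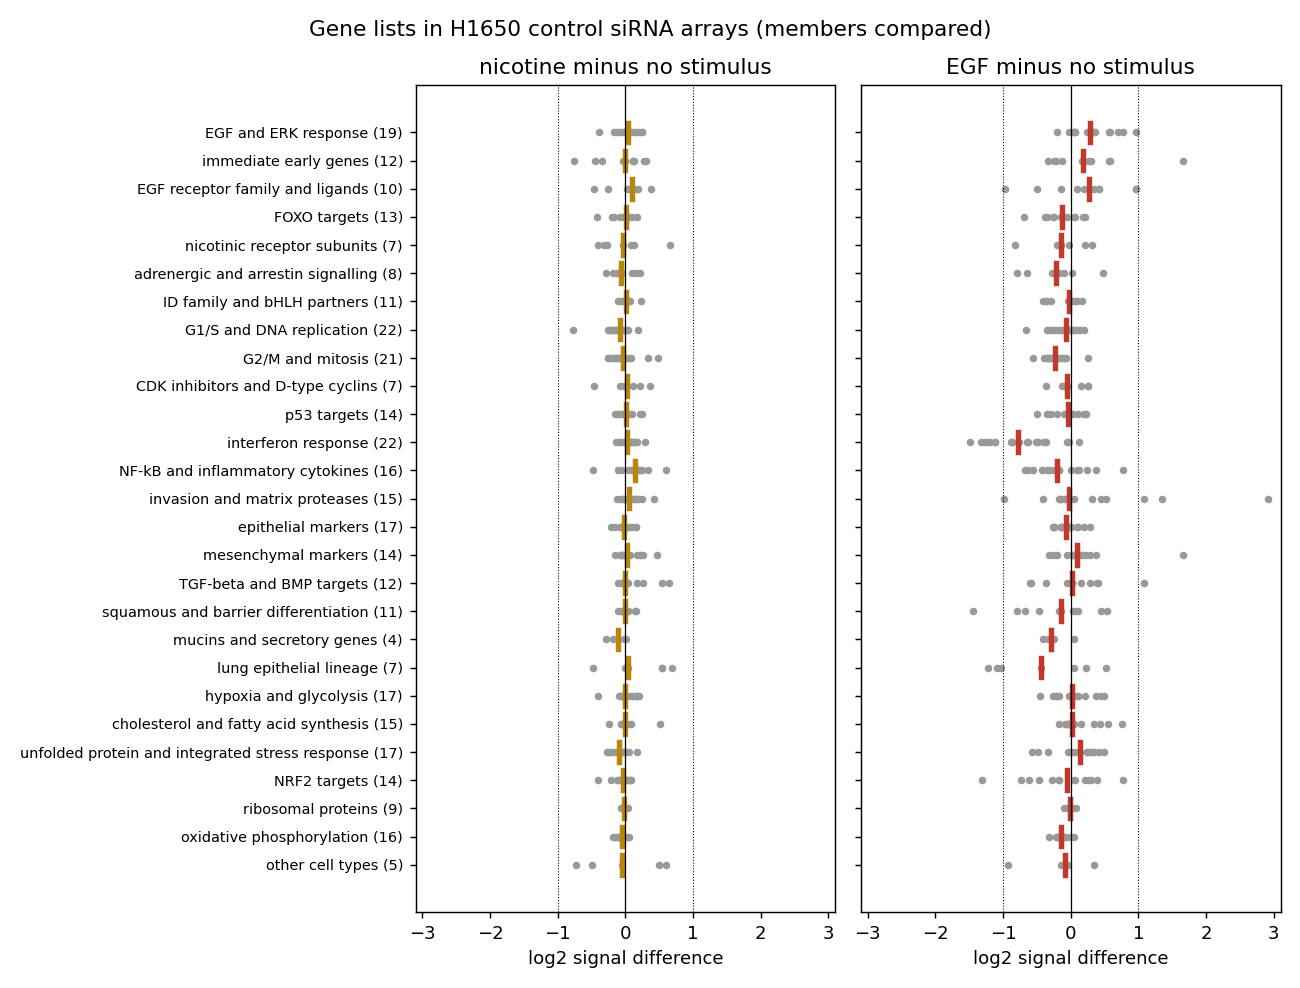
Log2 signal difference of nicotine minus no stimulus (left) and EGF minus no stimulus (right) for the members of 27 gene lists in H1650 control siRNA arrays, with 1 grey point per gene, a coloured bar at the list's median and the number of genes compared in brackets. The interferon response list lies lowest with EGF, at a median of -0.78, and at 0.02 with nicotine.

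With nicotine, 0 members of the 27 lists reached 2-fold in either direction, where 0.566% of all genes were higher and 0.207% lower. At such shares few members would be expected, so the 0 says little about the lists. Of 16 nicotinic receptor subunits 7 passed the signal filter, and their median was -0.03 with nicotine and -0.14 with EGF. CHRNA5, the subunit whose locus is linked to smoking, had 369 with nicotine, 325 with EGF and 376 without a stimulus. CHRNA3, from the same gene cluster, had 98.1 with nicotine, 69.0 with EGF and 123 without a stimulus, and CHRNG, the fetal muscle subunit, had 145, 113 and 91.5 in the same order. The largest of these differences with nicotine was that of CHRNG, at 1.59-fold in a signal near the filter.

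Nicotine stood apart from both other arrays in 13 genes higher (0.104%) and 10 lower (0.0798%). LINC00957, a long non-coding RNA, was the brightest, with 1096 with nicotine, 465 with EGF and 326 without a stimulus, while its other bright probe set gave 0.05. LINGO3, a leucine-rich repeat protein of neurons, had 297 with nicotine, 72.4 with EGF and 139 without a stimulus. POM121L12 had 248 with nicotine, 87.3 with EGF and 100.0 without a stimulus, and GRIK5, a kainate receptor subunit, had 180 with nicotine, 60.5 with EGF and 67.5 without a stimulus. Of the 10 lower genes, 10 had a nicotine signal below the array median. NOVA2, a neuronal splicing factor, had 63.5 with nicotine, 170 with EGF and 167 without a stimulus, at least 2.10-fold lower. OGDHL, a relative of a citric acid cycle enzyme, had 24.9 with nicotine, 117 with EGF and 150.4 without a stimulus, at least 1.90-fold lower. When dim values were raised to the array median, 7 of these genes higher and 1 lower reached 2-fold.

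Genes that differed at least 2-fold the same way with both stimuli numbered 36 higher (0.287%) and 4 lower (0.0319%), and 0 differed 2-fold in opposite ways. The unstimulated array enters both differences, so its error alone can place a gene in this group. These genes were dim: in 32 of the 36 the unstimulated signal lay below the array median, and the median of their mean signals was 89.1. With dim values raised to the array median 9 genes were at least 2-fold higher and 3 lower with both stimuli. Of the 10023 genes with a mean signal of 200 or more, 2 were in the shared higher group and 0 in the lower.

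The brightest shared gene was KLHL36, a Kelch adaptor of ubiquitin ligases, with 1183 with nicotine, 2129 with EGF and 470.3 without a stimulus. Its other bright probe sets gave -0.03 and 0.60 with nicotine and 0.58 and 0.55 with EGF, so the 2-fold size was seen on 1 of 3. FGD2, an activator of the GTPase CDC42, had 423 with nicotine, 197 with EGF and 43.9 without a stimulus, at least 5.75-fold and 2.68-fold higher. Both of its other bright probe sets were within 1.5-fold, at 0.16 and -0.36 with nicotine and 0.01 and -0.35 with EGF. ZNF235, a zinc finger protein, had 306 with nicotine, 456 with EGF and 119 without a stimulus. SLC22A14, an organic ion transporter family member, had 251 with nicotine, 260 with EGF and 97.0 without a stimulus. SPN, the leukocyte sialoglycoprotein CD43, had 187 with nicotine, 263 with EGF and 44.7 without a stimulus, and its other bright probe set gave 0.36 and -0.06. Of 7 shared genes with other bright probe sets, 10 such probe sets were available, 2 were higher in both differences and 0 at 2-fold.

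Of the 4 shared lower genes NDRG2, a stress-responsive gene of the NDRG family that restrains growth in several tumours, came first, with 41.8 with nicotine, 36.8 with EGF and 276 without a stimulus. It was at least 3.48-fold and 3.74-fold lower, and the ID1 siRNA arrays of H1650 had 40.5 with nicotine and 35.7 with EGF. All 4 stimulated arrays of the line were thus alike in NDRG2, and the unstimulated one stood alone. PIM2, a survival kinase, had 67.2 with nicotine, 51.1 with EGF and 174 without a stimulus, at least 2.20-fold and 2.36-fold lower. The pseudogene RNF126P1 had 115, 76.5 and 245 in the same order, and the protease PRSS36 had 68.8, 63.6 and 147. At the edge of the rule, CIDEB was just inside at 2.02-fold for the smaller of its 2 differences and ZFHX2 just outside at 2.00-fold. None of the 4 lower genes had another bright probe set.

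**Figure D4:**
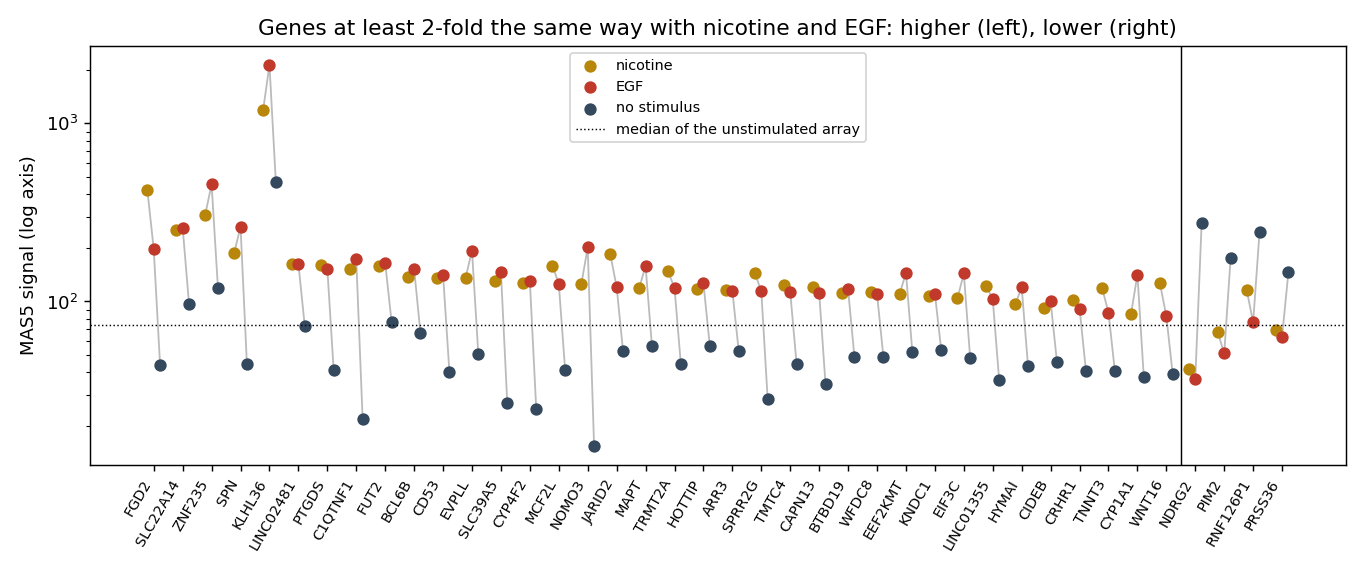
MAS5 signal on a log axis for the 36 genes at least 2-fold higher (left of the line) and the 4 at least 2-fold lower (right) with nicotine and with EGF than without a stimulus in H1650, 1 point per array. In 32 of the 36 the unstimulated point lies below the dotted median of its array, 73.5, and KLHL36 is the brightest.

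In A549, the second line of the series, the shared genes were mostly not higher with the stimuli. Of the 36, 5 were higher with both stimuli than on the A549 array labelled unstimulated control and 1 at least 2-fold, with medians of -0.35 for nicotine and -0.18 for EGF. The filter used H1650 signals only, so shared genes could be dim in A549. SPN had 50.2 with nicotine there, below the array median of 65.2. Of all genes, 52.8% were higher and 47.2% lower with nicotine than without in A549, 2.38% and 4.11% at 2-fold, and with EGF 48.3% were higher and 51.7% lower, 2.46% and 5.56% at 2-fold. Those shares are for each stimulus alone. The share of all genes that differed the same way with both was not counted, so the counts for both have no matching share. Of the 4 lower genes 2 were lower with both stimuli in A549. That A549 array had an ID1 signal of 1645, against 3720 and 3049 with nicotine and EGF, and thus stood apart from the other A549 controls in the targeted gene.

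The EGF genes could also be read on arrays that did not choose them. H1650 cells with ID1 siRNA were stimulated with EGF and with nicotine, 1 array each, and the difference of EGF minus nicotine there uses none of the 3 control arrays. Of the 32 genes higher with EGF in the controls, 31 were higher with EGF than with nicotine under ID1 siRNA, where 48.9% of all genes were, and 11 were at least 2-fold higher, against 0.813% of all genes. For the 151 lower genes 122 were lower, where 51.1% of all genes were, and 29 at least 2-fold, against 1.15%. The median differences were 0.66 and -0.58 under ID1 siRNA, against 1.18 and -1.28 in the controls that chose the genes. In the control pair 46.2% of all genes were higher and 53.8% lower with EGF than with nicotine, 0.614% and 1.91% at 2-fold. MMP1 had 1289.6 with EGF and 305 with nicotine under ID1 siRNA, VIM 6820 and 2689, IL13RA2 761 and 181, and STEAP1 1925 and 679. CXCL10 had 262 with EGF and 633 with nicotine, and TNFSF10 had 63.8 and 149. MMP3 differed more than in the controls, at 1772 with EGF and 479 with nicotine, whereas CCN2 was at 2309 and 2249. Other genes named above also fell short of 2-fold there. EGR4 stood at a log2 of 0.37, SUN3 at 0.27, CCN3 at -0.51 and CXCL11 at -0.36. SFTPC, lower with EGF in the controls, went the other way, at 0.69.

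In the interferon response list 21 of 22 genes were lower with EGF than with nicotine under ID1 siRNA, with a median of -0.44, against -0.78 in the control pair. OAS2 itself was lower with ID1 siRNA, and had 1248 with EGF and 1904 with nicotine there, against 1974 and 5356 with control siRNA. For genes set apart by nicotine, 4 of 13 were higher and 3 of 10 lower with nicotine than with EGF under ID1 siRNA. Of all genes 51.1% and 48.9% were. At 2-fold the counts were 0 and 1, against 1.15% and 0.813% of all genes, and both groups are small.

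**Figure D5:**
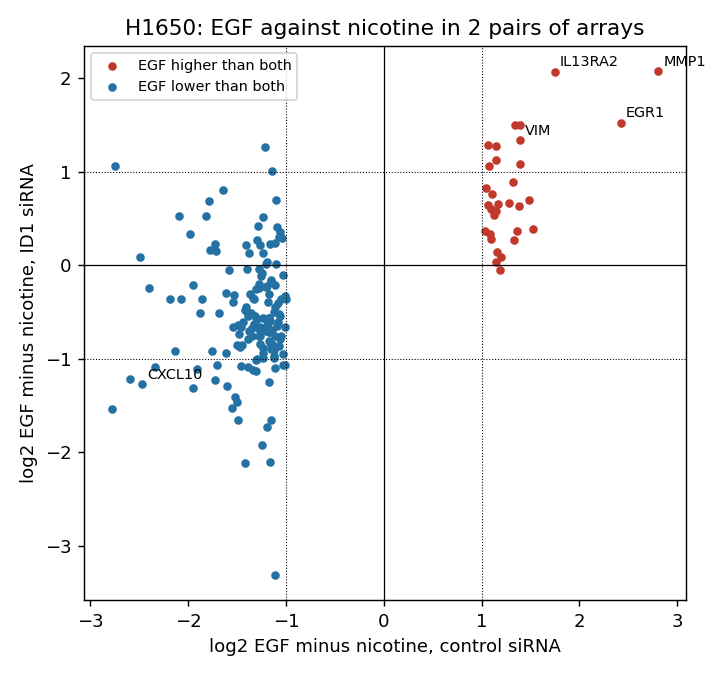
Log2 signal difference of EGF minus nicotine in H1650 with control siRNA (horizontal) and with ID1 siRNA (vertical) for the 32 genes higher (red) and 151 lower (blue) with EGF than on both other control arrays. The horizontal values chose the genes; on the vertical axis, 31 of 32 red points lie above 0 and 122 of 151 blue points below it.

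In A549 control arrays EGF minus nicotine, which does not use the unstimulated array, followed the H1650 genes less. Of the 32 genes higher with EGF in H1650, 24 were higher and 3 at least 2-fold, where 44% and 2.19% of all genes were. The filter used H1650 signals only, so genes could lie below the A549 medians, 65.2 with nicotine and 61.2 with EGF. BNC1, counted as higher, had 1.41 with EGF and 0.957 with nicotine. The sign of such a dim gene is not settled, and the number of them was not counted. Of the 151 lower genes 79 were lower and 26 at least 2-fold, where 56% and 3.12% were. Others of the 151 were at least 2-fold higher with EGF in A549, where 2.19% of all genes were. Among them were WNT4 at 2.93, IFI44L at 2.56 and OAS2 at 1.42 (log2), and their number was not counted. Large differences in A549 thus went both ways, and the 26 alone do not show that the lines were alike in the lower genes. The median of EGF minus nicotine in A549 was -0.05 (log2) for the 151 and -0.04 for all genes. Among the 32 higher genes, VIM had 30964 with EGF and 18080 with nicotine in A549, and MMP1 had 229 and 113. IL13RA2 and SERPINA1 went the other way there, at a log2 of -3.39 and -1.05 for EGF minus nicotine. These were dim on both A549 arrays, IL13RA2 at 1.71 with EGF and 17.9 with nicotine, SERPINA1 at 9.74 and 20.2. In the interferon response list 21 of 22 genes were higher with EGF than with nicotine in A549, with OAS2 at 262 and 98.1. The median of EGF minus nicotine was 0.86, the opposite sign to the -0.78 of H1650. Against the A549 array labelled unstimulated control, however, the list medians were -1.52 with nicotine and -0.52 with EGF. In H1650 they were 0.02 and -0.78, so EGF minus no stimulus had the same sign in both lines. The difference between the lines in EGF minus nicotine rests on 2 arrays in each and was not tested.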

How the data were processed

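Per the labels, total RNA was amplified, labelled with biotin and hybridised to Affymetrix U133 Plus 2.0 arrays. The deposited values are linear signal intensities of probe sets, produced, according to the submitters' processing notes, with GCOS 1.4 and MAS5; they have a 2% trimmed mean of about 500 on every array. The labels mention a log2 transformation that the values do not carry, so log2 was taken here. Of 54675 probe sets, 41097 had 1 gene symbol, 1801 had several and were set aside, and 41043 were matched by Entrez identifier. Some genes were not analysed here. Probe set choice and filter used the 3 H1650 control arrays. Python 3.11.15, numpy 2.4.6 and pandas 2.3.3 gave differences and counts, tested on simulated data. With 1 array per condition no test was made, and the number of arrays limits the precision. Separate cultures are not mentioned in the labels.

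The members and the 27 lists were chosen with earlier results of these data known. Named genes were, on differences with dim values raised to the array median, up to 15 per direction for both stimuli, up to 8 per stimulus and direction for genes apart from both other arrays, list members at 2-fold or else up to 2 with the largest difference, ID1 and control probe sets. The text names a selection, and genes outside the rule are marked. Alternatives were quantile normalization over 10 or 3 arrays, array-median centring, log2(signal + 16), raising dim values to the array median, no filter, a 75th percentile filter, choice and filter over 10 arrays, the mean of probe sets, and 1.5-fold or 3-fold. Promoters came from RefSeq tables of GRCh38.p14, for 10222 of 12539 genes.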

Additional observations from a re-analysis of the deposited data

Results flagged for a closer look

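For 10 results the measured log2 difference from the unstimulated array was beyond 1 in size and opposite in sign in H1650 and A549. Each value is 1 array against 1 array, the difference between lines was not tested, and the A549 values rest on the array labelled unstimulated control. With values below an array's median raised to it, 6 of the 10 were at least 2-fold in both lines, namely CCN2, MMP10 and ZNF235 with EGF, which had no dim value, ADAM33 and FGD2 with EGF, and SPN with nicotine. CCN2 stood at 1.09 in H1650 and -2.55 in A549, MMP10 at 1.35 and -1.09, and ZNF235 at 1.94 and -1.06. CCN2 had 3178 with EGF against 1497 without a stimulus in H1650, and 496 against 2907 in A549. MMP10 had 717 with EGF against 281 without in H1650, and 220.0 against 468 in A549. The A549 nicotine array also differed from that unstimulated array, by a measured -2.69 for CCN2 and 3.38 for ADAM33. Of the flagged genes, CCN2, MMP10 and ADAM33 were those apart with EGF in H1650. In A549 their EGF minus nicotine was 0.14, 0.70 and -0.45, the same signs as in H1650. For the genes with dim values the measured difference is followed by the size left after raising, which is a lower bound. ADAM33 measured -2.41 in H1650, bounded at -1.79, and 2.93 in A549, bounded at 2.14. FGD2 measured 2.16 and -1.85, bounded at 1.42 and -1.31, and SPN 2.06 and -2.52, bounded at 1.34 and -2.14. The other 4 did not reach 2-fold in at least 1 line after raising. BCL6B measured 1.06 and -1.10 with nicotine, bounded at 0.91 and -0.80, CD53 1.76 and -1.42, bounded at 0.89 and -0.43, GRIK5 1.41 and -1.46, bounded at 1.29 and -0.24, and LINC02481 with EGF 1.16 and -2.77, bounded at 1.15 and -0.64.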

How the results depend on the processing

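The mean of probe sets kept all 10 counts within 1.5 times. In the order nicotine higher and lower, EGF higher and lower, both higher and lower, EGF apart higher and lower, nicotine apart higher and lower, the counts were 1524, 1185, 1371, 1756, 752, 563, 506, 1046, 632 and 550 with no filter, 4, 1, 16, 65, 1, 0, 13, 47, 1 and 0 with the 75th percentile filter, 369, 165, 489, 836, 140, 56, 184, 550, 127 and 61 at 1.5-fold, and 16, 4, 20, 40, 11, 1, 2, 22, 0 and 2 at 3-fold. Fewer or more genes pass these by construction. Quantile normalization gave 40 lower with nicotine and 16 apart lower over 10 arrays, and 40, 16 and 8 apart higher over 3 arrays. Median centring gave 43 lower with nicotine, and 4 higher and 17 lower apart with nicotine. Adding 16 gave 37 and 15 with nicotine, 21 and 2 with both, and 6 and 6 apart with nicotine. Raising dim values gave 28 and 10 with nicotine, 76 higher with EGF, 9 higher with both, and 7 and 1 apart with nicotine. Choice and filter over 10 arrays gave 130 and 72 with nicotine, 64 and 22 with both, and 44 and 34 apart with nicotine. That setting chose another probe set for EGR4, at -0.14 with EGF, and for MCF2L, at -0.77 with nicotine and -0.29 with EGF. No paired analysis was possible because each condition has 1 array and no test was made. Signals near the array median limit the nicotine and shared genes most, since those groups were dim, and all values lack replicates.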
